A study of Sus scrofa with 12 samples.

Results

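Genes for lactate transport and for carbonic anhydrases were described in longissimus dorsi muscle of Iberian pigs. The set was defined by gene symbol: the monocarboxylate transporters SLC16A1, SLC16A3 and SLC16A7, their chaperone BSG, and the carbonic anhydrases CA2, CA3, CA4 and CA14. Of these 8 symbols, 6 were carried by a row among the 25880 gene rows of the count tables. SLC16A1 and BSG were carried by none, so they have no value here. RNA was sequenced from 12 castrated male pigs of this breed, all fattened outdoors on acorns and grass with free intake, with 1 library per pig. The High MB group (6 pigs) had high and the Low MB group (6 pigs) had low estimated breeding values for muscle myoglobin, from 0.159 to 0.206 and from -0.248 to -0.149, respectively. The measured myoglobin content ran from 2.376 to 2.559 mg/g (High MB) and from 1.226 to 1.58 mg/g (Low MB). The groups are extremes of a single commercial population chosen by breeding value, with full sibs avoided as far as possible, and all were slaughtered at a similar age.

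Working muscle that breaks down glucose without oxygen releases lactate together with protons. Monocarboxylate transporters of the SLC16 family carry lactate and a proton across the membrane in the same step, and several of them need a glycoprotein such as basigin (BSG) or embigin (EMB) to reach the cell surface. Carbonic anhydrases interconvert carbon dioxide and bicarbonate, which buffers protons inside and outside the fibre. SLC16A3 (MCT4) is the transporter typical of glycolytic fibres, SLC16A1 (MCT1) that of oxidative fibres, and SLC16A7 (MCT2) has a high affinity for its substrates. CA3 is an abundant cytosolic enzyme of slow muscle fibres with low activity, CA2 is a fast cytosolic enzyme of many cells, and CA4 and CA14 are bound to membranes with the active site outside the cell.

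The promoter of SLC16A7 is given because this gene differed most between the groups. It is the 250 bases before the RefSeq gene start in Sscrofa11.1, read 5′ to 3′ on the plus strand, at chr5:24712759-24713008. Capitals would mark CAGCTG, an E-box of the kind bound by muscle regulatory factors, TATAAA, or ACGTG, the core of the element bound under hypoxia, and the window holds none of them.
SLC16A7: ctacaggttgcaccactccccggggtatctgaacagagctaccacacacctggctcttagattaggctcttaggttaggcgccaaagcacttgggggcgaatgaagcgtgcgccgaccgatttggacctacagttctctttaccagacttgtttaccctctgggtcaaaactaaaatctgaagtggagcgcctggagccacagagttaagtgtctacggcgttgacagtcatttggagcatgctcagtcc

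On either strand, CAGCTG was present in 13.6%, TATAAA in 9.77% and ACGTG in 18.7% of 19556 such windows of the annotation. The windows of SLC16A3, CA2 and CA14 held none of these letters either. CA2 and CA3 are neighbours on chromosome 4, both on the minus strand, from 51194686 to 51211436 and from 51227485 to 51237861. CA14 lies on the same chromosome from 98821577 to 98828934 (minus strand). SLC16A3 (796882 to 807480) and CA4 (37962951 to 37972443) are on the minus strand of chromosome 12, and SLC16A7 is on the plus strand of chromosome 5 from 24713009 to 24871891. The end of CA4 overlaps a RefSeq long noncoding RNA of the other strand, and reads from the shared stretch cannot be told apart.

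Gene counts summed to between 38914271 and 91318334 per pig. Values are counts per 1000000 counts of the library (CPM), with the library totals scaled by TMM, a normalization that equalises the bulk of genes between libraries. The library of High MB pig 2 stood apart from the rest: the median Pearson correlation of its log2 CPM over genes with those of the other pigs was 0.9476, against 0.9621 to 0.9748 for the other 11 libraries, and the summed level of 6 fast fibre markers was 20930 CPM, against 36150 to 49210 CPM. Values that moved most with this pig are also given without it.

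The genes covered a wide range of levels. Per kilobase of RefSeq exon, CA3 had a mean of 1876 CPM over the 12 pigs (range 763.9 to 2632), CA14 42.2 (16.6 to 66.3) and SLC16A3 15.4 (7.16 to 23.9). CA4 followed at 4.88 CPM per kilobase (3.24 to 7.96), CA2 at 1.53 (0.437 to 2.95) and SLC16A7 at 0.104 (0.0402 to 0.390). The ranges of CA14 and SLC16A3 overlapped between pigs, as did those of SLC16A3 and CA4, while the ranges of CA3 and CA14, of CA4 and CA2, and of CA2 and SLC16A7 did not. CA14 was nevertheless above SLC16A3, and SLC16A3 above CA4, within each of the 12 pigs. In CPM without division by length, the ranges of CA4 (3.73 to 9.15) and CA2 (0.750 to 5.05) did overlap. Those of CA2 and SLC16A7 (0.513 to 4.98) also overlapped in CPM. Among the other SLC16 genes, the most abundant per kilobase were SLC16A5 at 9.86 CPM and SLC16A10, a transporter of aromatic amino acids, at 5.49 CPM, so that SLC16A3 had the highest level of the SLC16 genes with a row and a length. CA1, the anhydrase of red blood cells, had 0 counts in 11 of 12 pigs.

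**Figure D1:**
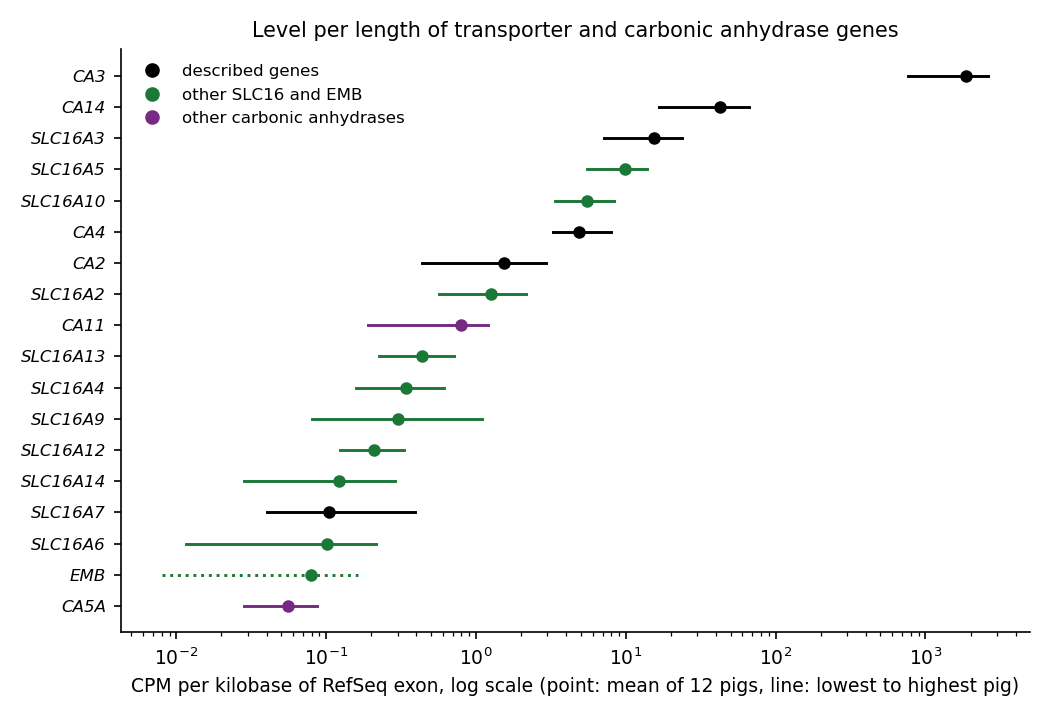
Mean level (point) and lowest to highest pig (line) of the transporter and carbonic anhydrase genes that passed the filter on low counts, in CPM per kilobase of RefSeq exon on a log axis, over 12 pigs. CA3 stands highest at 1876 CPM per kilobase and SLC16A7 near the bottom at 0.104; the dotted line of EMB runs to a pig with 0 counts, and CA13, which has no length here, is not drawn.

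Whether these genes differed between pigs of high and low genetic merit for myoglobin was tested with edgeR over 13373 genes. The levels of SLC16A7 were higher in the High MB group at an unadjusted p only, and the other 5 genes had intervals that included 0. All 6 genes with a row passed the filter on low counts, and none passed an adjusted p-value under 0.10 with an absolute log2 fold change over 0.58, nor did any of the 13373 genes (0%; the smallest adjusted p in edgeR was 0.563). At an unadjusted p under 0.05 in edgeR, 1 of the 6 differed, and it was higher in the High MB group, against 8.46% of all genes in either direction (1132 genes) and 5.33% higher (713 genes). The log2 fold change was above 0 for 3 of the 6, against 46.9% of all genes, and the median was 0.02, against -0.02 over all genes. With 1 pig left out at a time, between 1 (without High MB pig 6, median -0.10) and 5 of the 6 (without High MB pig 2, median 0.16) were above 0, so single pigs of either kind move this count. For none of the 6 did the groups separate fully, which was the case for 0.426% of all genes. DESeq2, the tool of the study, called 29 of 14329 genes (0.202%), and 32 of 13781 (0.232%) when run on genes with at least 10 counts in total, and none of the 6 was among either set.

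**Figure D2:**
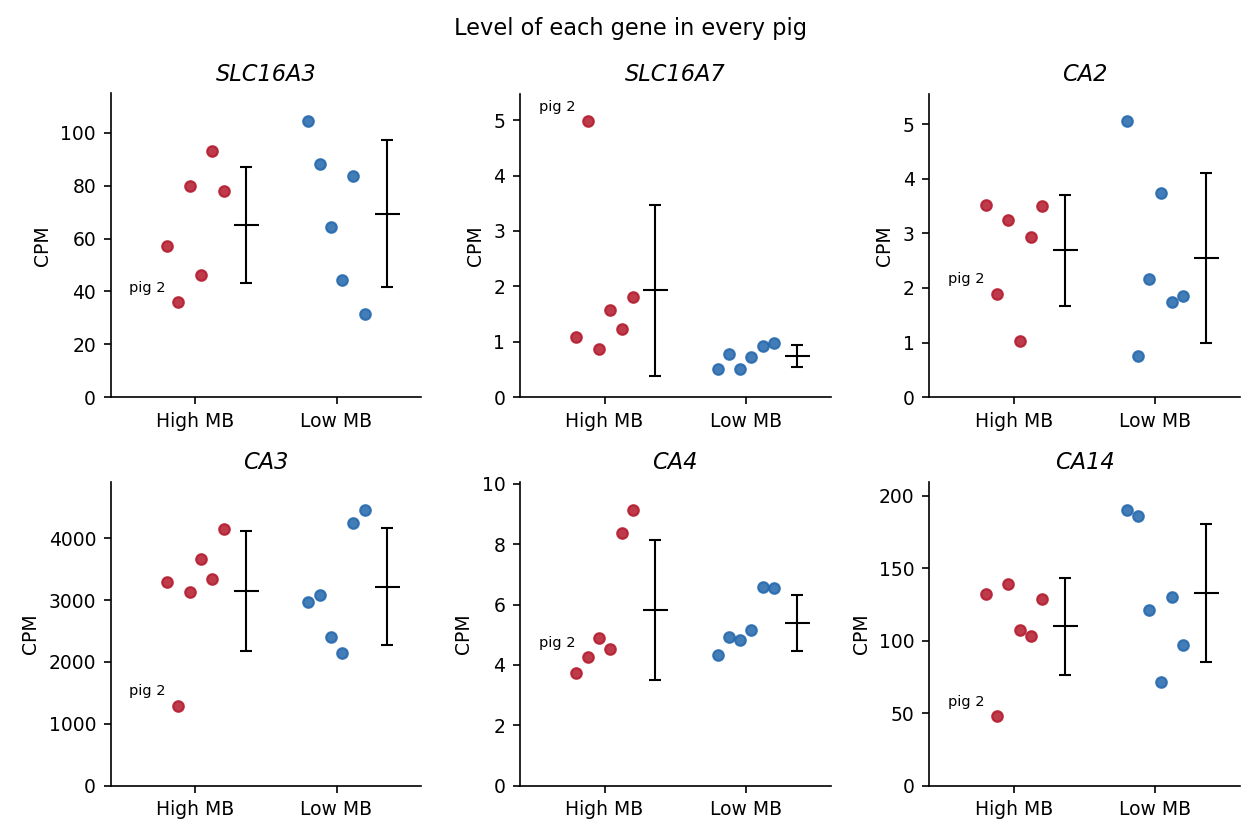
CPM of the 6 genes in every pig (points) of the High MB and Low MB groups, with the mean and SD (n = 6) beside the points and a linear axis from 0. High MB pig 2 holds the highest SLC16A7 value (4.98 CPM) and the lowest CA3 value (1296 CPM); in none of the panels are the groups fully apart.

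SLC16A3 exports lactate from glycolytic fibres. Its level was 57.4, 36.1, 79.8, 46.4, 93.3 and 77.9 CPM in High MB pigs 1 to 6 and 104.5, 88.4, 64.3, 44.5, 83.9 and 31.4 CPM in Low MB pigs 1 to 6. The highest and the lowest pig were both in the Low MB group, and the groups overlapped almost entirely. The means were 65.1 ± 22.0 (SD, n = 6) and 69.5 ± 27.9 CPM (SD, n = 6). The log2 fold change was -0.09 (SE 0.29, 95% confidence interval -0.71 to 0.52, edgeR adjusted p = 0.947), and the exact permutation test of log2 CPM gave p = 0.874. The sign of this small difference turned without High MB pig 2 (0.05, edgeR adjusted p = 0.951) or Low MB pig 1 (0.0595), and without Low MB pig 2 it was 0.00178.

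SLC16A7 had 1.08, 4.98, 0.876, 1.58, 1.22 and 1.82 CPM in High MB pigs 1 to 6 and 0.514, 0.775, 0.513, 0.721, 0.923 and 0.982 CPM in Low MB pigs 1 to 6. Of the High MB pigs, 5 lay above every Low MB pig, and pig 3 lay among them. The means were 1.93 ± 1.54 (SD, n = 6) and 0.738 ± 0.198 CPM (SD, n = 6), from 20 to 240 counts per pig. The log2 fold change was 1.38 (SE 0.41, 95% confidence interval 0.52 to 2.25, unadjusted p = 0.00405, edgeR adjusted p = 0.563). The two-sided exact permutation test over all regroupings of the pigs gave p = 0.00649, where the smallest value possible is 0.00216. DESeq2 gave an unadjusted p of 0.000476 and an adjusted p of 0.122, and 0.116 on genes with at least 10 counts. Without High MB pig 2 the log2 fold change was 0.86 (unadjusted p = 0.0107, adjusted p = 0.462 in edgeR), and it was 1.12 among the 5 deeper libraries and 1.61 among the 7 shallower ones. This gene is in the list of differentially expressed genes that the study derived from these same libraries, so its direction here is not independent evidence. That list joined calls on genes with calls on transcripts, and the transcript counts were not used here.

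Markers of cells other than muscle fibres were higher in the same group as SLC16A7. All 8 macrophage markers had a log2 fold change above 0, 6 of them with an unadjusted p under 0.05 (4 without High MB pig 2, and 5 to 7 with any other pig left out), and their summed level was 64.1 to 144.9 CPM in the High MB group and 31.0 to 75.2 CPM in the Low MB group, with the highest value in High MB pig 2. The 6 fibroblast markers were also all above 0, 3 of them at that limit (from 1 without Low MB pig 1 to 5 without High MB pig 3 or Low MB pig 6), with sums of 630.1 to 1118 and 326.3 to 828.4 CPM. Of the adipocyte markers 7 of 7 tested and of the endothelial markers 8 of 8 were above 0, with 3 and 1 at that limit (from 1 without High MB pig 4 or 6 to 7 of 8 without Low MB pig 5 for the adipocyte list, and from 1 to 6 for the endothelial list, the latter without the same Low MB pig), and sums of 393.4 to 674.7 against 372.1 to 585.6 CPM and of 204.0 to 268.9 against 153.7 to 269.4 CPM. None of these marker genes passed the adjusted limit. Of the erythroid markers, 2 of the 3 tested were at that limit (1 without High MB pig 5), while SLC4A1 had 0 counts in 9 of the pigs. Beyond ratios of SLC16A7 to the macrophage and fibroblast markers of the same pig, given among the other observations, the part of these cells in its difference was not tested. In bulk tissue fewer cells of a type and less RNA per cell cannot be told apart.

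CA3, the anhydrase of slow fibres, had 3289, 1296, 3132, 3662, 3342 and 4153 CPM in High MB pigs 1 to 6 and 2967, 3080, 2405, 2144, 4241 and 4464 CPM in Low MB pigs 1 to 6. Apart from High MB pig 2, the lowest of all, the High MB pigs lay within the Low MB range. The means were 3145 ± 976 (SD, n = 6) and 3217 ± 948 CPM (SD, n = 6). The log2 fold change was -0.03 (SE 0.25, 95% confidence interval -0.58 to 0.51, edgeR adjusted p = 0.985; exact permutation p = 0.853), and it turned to 0.15 without High MB pig 2 (adjusted p = 0.786 in edgeR), 0.0626 without Low MB pig 5 and 0.0841 without Low MB pig 6. Of 9 slow fibre markers listed, 6 had a row, with no myosin heavy chain among them. Beside CA3, all 6 had log2 fold changes above 0 and 5 of them an unadjusted p under 0.05 in edgeR (4 or 5 with any pig left out). Among these 5 were TNNC1 (0.58) and TNNI1 (0.58), the slow forms of troponin C and I. None of the slow fibre markers passed the adjusted limit, and their sums were 6433 to 12550 CPM in the High MB and 4842 to 8404 CPM in the Low MB group. Of 10 fast fibre markers listed, 6 had a row, again with no myosin heavy chain among them. Of these 6, 5 had log2 fold changes below 0. ATP2A1, the calcium pump of fast fibres, had an unadjusted p of 0.044 in edgeR (log2 fold change -0.44, adjusted p = 0.578). With 1 pig left out, the fast fibre markers at that limit numbered 0 to 2, and without High MB pig 2, 4 of the 6 were above 0. The fast fibre sums were 20930 to 45570 CPM in the High MB and 36150 to 49210 CPM in the Low MB group.

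CA2 had 3.53, 1.89, 3.24, 1.03, 2.94 and 3.51 CPM in High MB pigs 1 to 6 and 5.05, 0.750, 2.16, 3.73, 1.75 and 1.85 CPM in Low MB pigs 1 to 6. Low MB pigs held both the highest and the lowest value. The log2 fold change was 0.07 (SE 0.40, 95% confidence interval -0.79 to 0.93, edgeR adjusted p = 0.976; exact permutation p = 0.693). With 1 pig left out it ranged from -0.10 without Low MB pig 2 to 0.39 without Low MB pig 1. Within a pig, the count of CA3 exceeded that of its neighbour CA2 by between 9.16 and 11.98 on the log2 scale. This difference of log2 counts was 10.2 ± 0.815 (SD, n = 6) for High MB and 10.5 ± 1.18 (SD, n = 6) for Low MB pigs, with no difference beyond the spread (exact permutation p = 0.621). High MB minus Low MB was -0.27 for this value, with a range from -0.58 without High MB pig 4 to 0.0331 without Low MB pig 2.

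The membrane anhydrases CA4 and CA14 did not pass the test either. CA4 had 3.73, 4.26, 4.88, 4.53, 8.39 and 9.15 CPM in High MB pigs 1 to 6 and 4.33, 4.93, 4.82, 5.15, 6.57 and 6.54 CPM in Low MB pigs 1 to 6, so that 2 High MB pigs exceeded all others. Its log2 fold change was 0.11 (SE 0.23, 95% confidence interval -0.38 to 0.61, edgeR adjusted p = 0.917; exact permutation p = 0.879). It was 0.21 without High MB pig 1 or 2, and its sign turned without pig 5 (-0.02) or pig 6 (-0.06), the High MB pigs with the highest levels. CA14 had 131.9, 47.8, 139.3, 107.4, 103.5 and 128.9 CPM in High MB pigs 1 to 6 and 190.4, 186.2, 121.1, 71.3, 129.8 and 97.2 CPM in Low MB pigs 1 to 6. The lowest value was again that of High MB pig 2 and the highest values were those of Low MB pigs 1 and 2. For CA14 the log2 fold change was -0.27 (SE 0.27, 95% confidence interval -0.84 to 0.30, edgeR adjusted p = 0.798; exact permutation p = 0.450), and it ranged from -0.38 without Low MB pig 4 to -0.09 without High MB pig 2. The log2 ratio of CA4 to CA14 counts was -4.24 ± 0.692 (SD, n = 6) and -4.55 ± 0.689 (SD, n = 6), with an exact permutation p of 0.442. Its difference between the groups was 0.31, with a range from 0.13 without Low MB pig 1 to 0.49 without High MB pig 1.

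**Figure D3:**
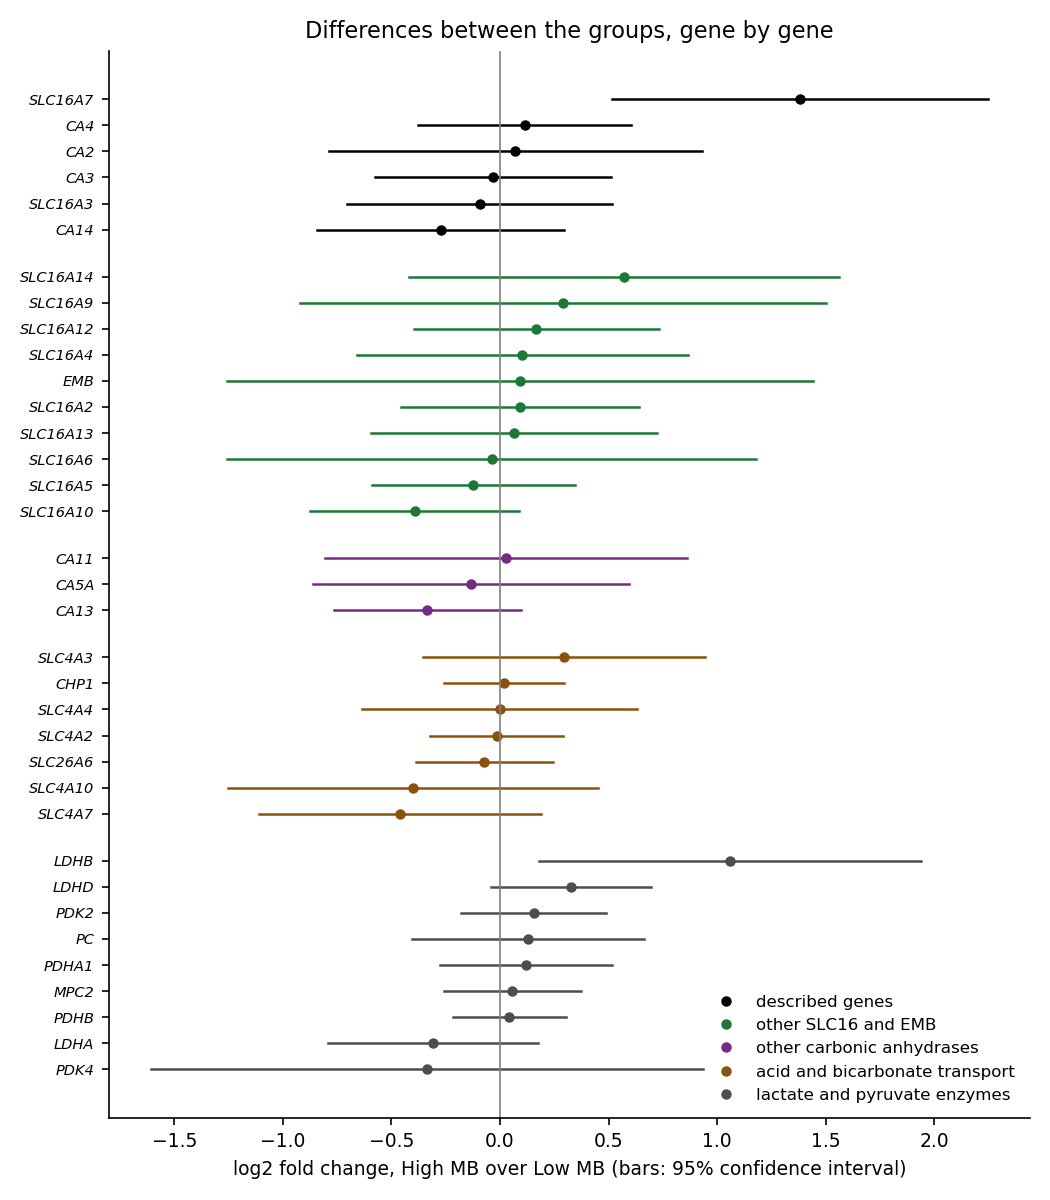
Log2 fold change of High MB over Low MB with the 95% confidence interval for the 6 genes and the related genes of 4 lists that are reported here, from edgeR on 12 pigs. SLC16A7 (1.38) and the row that carries the symbol LDHB (1.06), whose locus is uncertain, have intervals that leave out 0, and neither passed the adjusted limit.

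Related genes were counted from fixed lists. Of the 10 other SLC16 genes and EMB that were tested, 7 had a log2 fold change above 0 and 3 below, and none had an unadjusted p under 0.05 (median 0.09). With 1 pig left out, between 4 (without High MB pig 2, median -0.05) and 8 of the 10 (without High MB pig 4 or 5, or Low MB pig 5) were above 0, and 1 gene was lower at that limit without High MB pig 1 or Low MB pig 6. SLC16A10 was at 50.4 CPM in the High MB and 66.2 CPM in the Low MB group (log2 fold change -0.39, edgeR unadjusted p = 0.101). Only 3 of the other carbonic anhydrases were tested, CA5A, CA11 and CA13, with 1 above 0 and none at that limit (median -0.13), and with 1 pig left out the median ranged from -0.24 without High MB pig 4 to 0.08 without High MB pig 2. Of 8 genes of acid extrusion and bicarbonate transport, 3 were above and 5 below 0, again with none at that limit (median -0.01). With 1 pig left out, 8 or 9 were tested, 3 to 6 were above 0 (6 without High MB pig 1), 1 was higher at that limit without Low MB pig 5, and the median ranged from -0.05 without High MB pig 3 to 0.05 without High MB pig 2. Among 9 enzymes of lactate and pyruvate, 7 were above 0 (5 without Low MB pig 6 to 8 without Low MB pig 4), with 1 at that limit (2 without High MB pig 2 or Low MB pig 1). The row that carries the symbol LDHB reached an unadjusted p of 0.0214 in edgeR (log2 fold change 1.06, adjusted p = 0.563) at 1.25 against 0.602 CPM, and no enzyme of the list was at that limit without High MB pig 3. RefSeq places LDHB at 2 loci and the sources used here do not say which of them this row counts, so its value is not taken as the level of the heart form of lactate dehydrogenase. LDHA, the muscle form, was at 4798 and 5942 CPM (log2 fold change -0.31, edgeR unadjusted p = 0.195).

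The genes were also compared with each other and with the measured myoglobin content. Among 15 pairs, SLC16A3 and CA14 had the highest correlation of log2 CPM over the 12 pigs, with Pearson's r = 0.756 (permutation p = 0.00322, adjusted over the pairs 0.0483) and Spearman's rho = 0.727 (adjusted permutation p = 0.139). It was 0.770 with the group means removed, 0.717 without the 2 pigs farthest from the median of SLC16A3, where it no longer passed the adjusted limit, and 0.701 without High MB pig 2, where the adjusted permutation p was 0.217. SLC16A7 and CA3 had r = -0.359 over all pigs (adjusted permutation p = 0.577) and r = 0.652 without High MB pig 2 (adjusted permutation p = 0.217), so its sign rested on that pig. The correlation of CA3 and CA14 fell from 0.620 to 0.148 without the same pig. All pairs share the 12 libraries and their scaling. Within a group, none of 12 relations with myoglobin content passed. The strongest was that of CA3 in the Low MB group, with r = -0.763 (exact permutation p = 0.0861, adjusted 0.567, n = 6) and rho = -0.771 (exact permutation p = 0.103, adjusted 0.544). Without the 2 pigs farthest from the median content, r was -0.938 on fewer pigs (exact permutation p = 0.125).

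**Figure D4:**
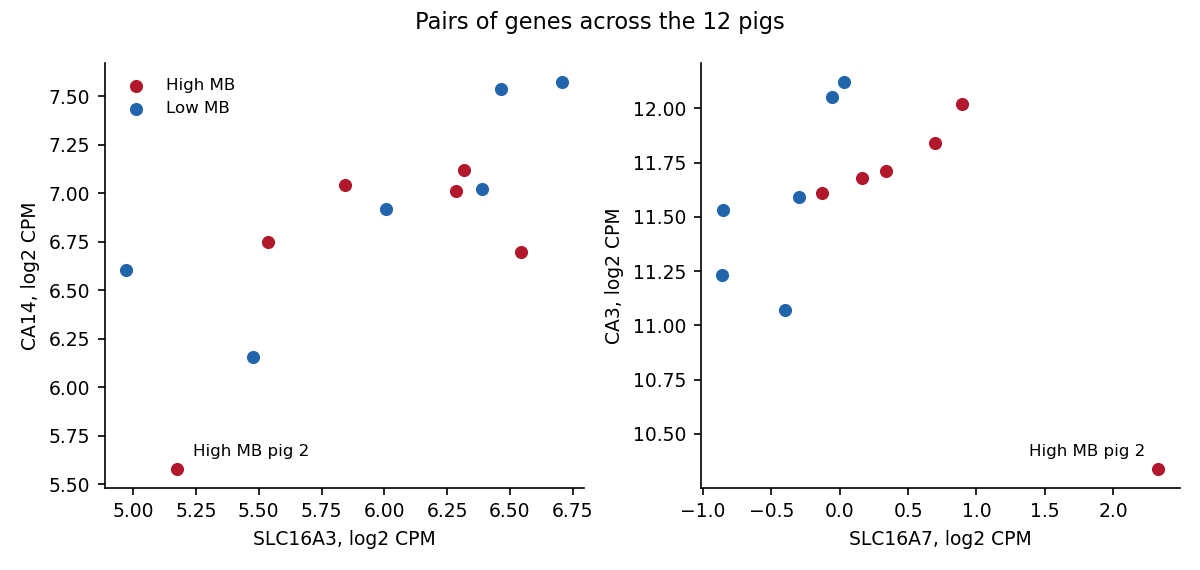
Log2 CPM of SLC16A3 against CA14 (left) and of SLC16A7 against CA3 (right) in the 12 pigs, coloured by group. SLC16A3 and CA14 vary together (r = 0.756), and High MB pig 2, at the lower right of the SLC16A7 panel, decides the sign of that pair (r = -0.359 with it and 0.652 without it).

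As a description with no test, genes whose log2 CPM closely followed each gene over the 12 pigs were taken from 8142 genes. The closest to SLC16A7 were ECM1 (r = 0.951, and 0.945 without High MB pig 2), which encodes an extracellular matrix protein, NIBAN2 (0.935 and 0.874) and PTGIS, the prostacyclin synthase (0.931 and 0.844). Close to CA14 were SETD7 (0.941 and 0.885) and RTN4 (0.941 and 0.874). SLC16A3 was followed by TRAK1 (0.946), DDX49 (0.928) and LRRC47 (0.928), and CA3 by GPR17 (0.981), TSPAN7 (0.953) and IDI1, an enzyme of isoprenoid synthesis (0.947). The closest genes were less alike for CA4, with BRF2 (0.860) and CARD10 (0.852), and for CA2, with TMEM101 (0.816), ELAC2 (0.748) and NAXD (0.727).

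**Figure D5:**
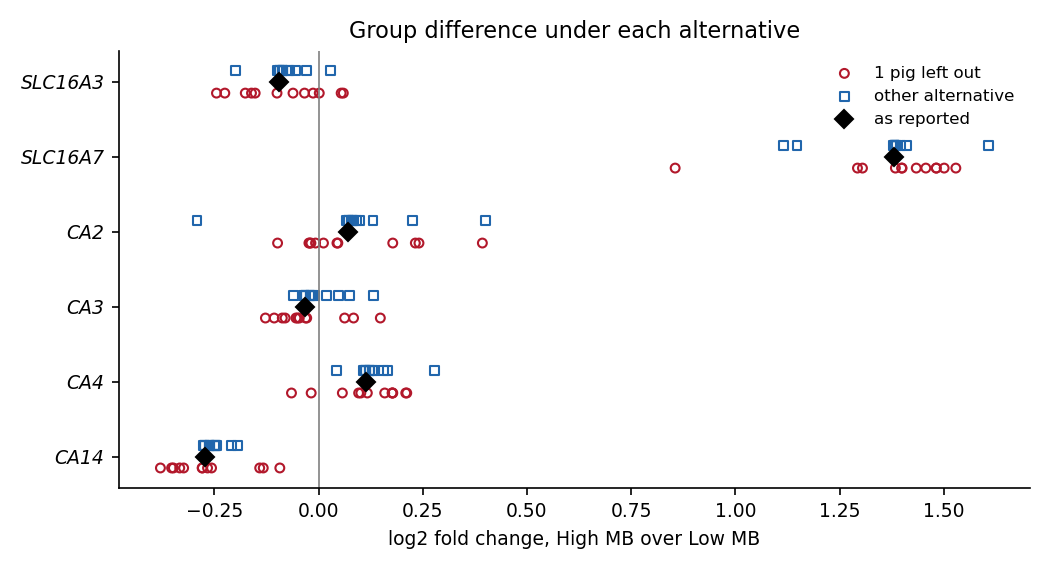
Log2 fold change of High MB over Low MB for the 6 genes as reported (diamonds), with 1 pig left out (circles) and under the other processing alternatives (squares). SLC16A7 ranges from 0.86 to 1.53 with 1 pig left out and remains above 0, CA14 remains below 0, and the other 4 genes cross 0.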

How the data were processed

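RNA of longissimus dorsi from 12 pigs was sequenced as paired reads. Per the labels and the study's methods, the authors used TrimGalore for trimming and hisat2 for alignment (Sscrofa11.1), and the deposited values are raw htseq-count counts per gene, with no normalization. The strand and overlap settings and the annotation release are not given in the sources used here. Of the entries in genes, in no feature or ambiguous, 47.0 to 48.2% were assigned to genes and 50.9 to 52.0% were in no feature. Any other summary entries of the counting were left out of this total. The transcript tables were not used here. Gene symbols were listed for 14857 of 25880 identifiers. Positions, exon lengths and promoters came from RefSeq, where CA2 was found by its product name. These lengths may differ from those of the models that were counted.

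Counts were tested with edgeR 4.0.16 in R 4.3.3 (TMM, filterByExpr, estimateDisp, glmQLFit, glmQLFTest, no covariate). DESeq2 1.42.0, other scalings and filters, a depth covariate, a replicate block and each pig left out were alternatives. Log2 CPM used a prior count of 2, and the ratios of counts used 0.5. Single values were compared by exact two-sided permutation, and pairs of genes by 100000 permutations. The individual numbers did not pair the pigs, since same-numbered pigs had correlations of -0.212 to 0.144. The scripts were tested on simulated data. The members and lists were chosen with earlier results of these data known. Named genes were the members, list genes with an unadjusted p under 0.05 or chosen for their level, and for each member the 3 most correlated genes with a mean log2 CPM over 2; CA1 was chosen after its values were seen, and some genes and sequences that this rule names are not reported here. The ratio of SLC16A1 to SLC16A3 could not be computed, as SLC16A1 has no row. Pigs are separate animals, and the counting depth limits SLC16A7 most.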

Additional observations from a re-analysis of the deposited data

Results flagged for a closer look

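In the High MB group, the highest SLC16A7 value, 4.98 CPM in pig 2, lay far above the other 5 pigs, with a gap of 0.771 of the range of the group, above Dixon's critical value for 6 samples. In the same group, the lowest CA3 value, 1296 CPM in pig 2, lay far below the others, with a gap of 0.643 of the range. Chance flags about 1 in 20 groups, and 12 groups were tested. Both values belong to the library that stood apart from the others, and the cause was not tested.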

How the results depend on the processing

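No member passed the adjusted limit, and 1 of 6 had an unadjusted p under 0.05, under each alternative run on all pigs or with 1 pig left out. Over all genes edgeR called 0, DESeq2 29 (32 on genes with at least 10 counts, an alternative chosen after seeing the data), and edgeR within the 5 deeper libraries 1. With the individual number as a replicate block, 0 genes were called, 957 had an unadjusted p under 0.05 against 1132 without it, and the log2 fold change of SLC16A7 was 1.15; the numbers do not pair the pigs. The sign of several small log2 fold changes turned: SLC16A3 to 0.0286 in the 7 shallower libraries, CA2 to -0.29 in the 5 deeper ones, and CA3 to 0.0197 with upper quartile factors, 0.0735 with the depth covariate, 0.0471 in the 5 deeper and 0.13 in the 7 shallower libraries. With 1 pig left out, log2 fold changes ranged from -0.24 to 0.0595 for SLC16A3, -0.10 to 0.39 for CA2, -0.13 to 0.15 for CA3 and -0.0649 to 0.21 for CA4, and log2 CPM differences from -0.26 to 0.10, -0.10 to 0.44, -0.17 to 0.17 and -0.11 to 0.15 for the same genes. The log2 ratio of CA3 to CA2 ranged from -0.58 to 0.0331. Without the 2 farthest pigs, relations with myoglobin in the High MB group turned to r = 0.476 for SLC16A3, 0.0767 for CA2, 0.321 for CA3, 0.821 for CA4 and 0.0116 for CA14. The largest of these, that of CA4, had an exact permutation p of 0.25 on the pigs left. Pairs turned, without the 2 farthest pigs, to 0.590 (SLC16A7 and CA3), 0.0521 (CA2 and CA3), -0.156 (CA2 and CA4), -0.417 (CA3 and CA14) and -0.00873 (CA4 and CA14). Without High MB pig 2, pairs turned to -0.0697 (SLC16A3 and CA3), 0.652 (SLC16A7 and CA3), -0.112 (CA2 and CA14) and -0.262 (CA4 and CA14). With either removal, 0 pairs passed the adjusted limit. The cause was not tested.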

Other observations

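Each of 4 genes was set against the summed CPM of the marker list of a cell or fibre type within the same pig, in 5 log2 ratios chosen after the values were seen. CA3 relative to slow fibre markers was -1.56 ± 0.523 (SD, n = 6) for High MB and -0.98 ± 0.472 (SD, n = 6) for Low MB pigs, which differed by -0.58 (exact permutation p = 0.0758, adjusted over the ratios 0.265), with a range from -0.71 without High MB pig 6 (exact permutation p = 0.0411, unadjusted) to -0.43 without High MB pig 2 (exact permutation p = 0.154) or Low MB pig 6. SLC16A7 relative to macrophage markers differed by 0.38 (exact permutation p = 0.212, adjusted 0.265) and relative to fibroblast markers by 0.51 (exact permutation p = 0.188, adjusted 0.265). Without High MB pig 2 these differences were 0.21 (exact permutation p = 0.418) and 0.16 (exact permutation p = 0.372), and without High MB pig 5 the latter was 0.66 (exact permutation p = 0.0368, unadjusted). CA4 relative to endothelial markers differed by -0.25, with 4 High MB pigs below every Low MB pig and 1 above (exact permutation p = 0.186, adjusted 0.265), with a range from -0.37 without High MB pig 6 (exact permutation p = 0.0455, unadjusted) to -0.18 without High MB pig 2. SLC16A3 relative to fast fibre markers differed by 0.17 (exact permutation p = 0.539, adjusted 0.539), and by -0.02 without Low MB pig 6. None of the 5 passed the test over all 12 pigs.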
